A study of Mus musculus with 12 samples.

Results

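Ribosomal protein genes were followed in RNA from the brains of C57BL/6J mice after transient middle cerebral artery occlusion, a filament model of ischemic stroke. The members were the protein-coding genes whose symbols begin with Rpl, Rps, Mrpl or Mrps followed by a digit, without the S6 kinases, which share the prefix but sit outside the ribosome. The rule found 165 members among 39756 genes of the count table. Of these, 87 carry cytosolic symbols (53 of the large subunit and 34 of the small subunit) and 78 carry mitochondrial symbols (49 and 29). A filter on low counts left 159 members, 81 cytosolic and 78 mitochondrial, among 17558 genes tested.

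Poly(A) RNA was sequenced from 1 brain hemisphere of each of 12 male mice in 3 groups of 4, all of 1 labelled batch. The labels call all of these hemispheres ischemic, also those of the Sham mice, which had sham surgery and saline. Vehicle mice had an occlusion of 45 min with reperfusion and saline, and LJP mice had the same occlusion with Laminaria japonica polysaccharide, a sulfated polysaccharide from brown seaweed. By the study's methods the mice were 9 to 10 weeks old, and saline or LJP was given by gavage daily for 14 days before surgery and continued afterwards. The labels do not give the dose of LJP. By the study's text the experiments that followed its dose test used the middle of 3 doses, 200 mg/kg, without naming these mice. The hour of collection for these libraries is not given in the sources used here. Each library is 1 hemisphere, so infarcted, bordering and spared tissue are mixed, and no treated mouse without ischemia was among the groups.

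A ribosome is built from ribosomal RNA and a full set of small, basic proteins. The cytosolic ribosome translates nuclear messages with large subunit proteins (Rpl) and small subunit proteins (Rps), which are needed in equal numbers and whose genes are among the most actively transcribed of any cell. The mitochondrial ribosome is a separate machine: its proteins (Mrpl and Mrps) are also encoded in the nucleus, made in the cytosol and imported to translate the few messages of mitochondrial DNA, all for subunits of oxidative phosphorylation. Cytosolic ribosomal protein messages start with a run of pyrimidines, through which growth signalling by mTOR sets how well they are translated, a step that RNA counts do not measure.

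Total counts were between 17960353 and 22216315 per mouse, and a floor of 3 counts was 0.129 to 0.173 CPM, the count of a gene scaled to the size of its library with TMM normalization factors. The brain label was met in every mouse, with summed neuron markers at 4058 to 7822 CPM. Vehicle mice 1 and 2 stood apart from Vehicle mice 3 and 4. Their summed endothelial markers were 598 and 1239 CPM against 235 and 295 CPM, while all Sham and LJP mice lay between 154 and 214 CPM. The counts of the sets and related lists in Vehicle against Sham, and the values of many named genes, are therefore also given with Vehicle mice 3 and 4 alone, in a fit that keeps all Sham and LJP mice.

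The cytosolic set rose as a block after ischemia. Its 87 genes together held 9296, 9623, 9668 and 10004 CPM in the Sham mice. The Vehicle mice held 15570, 20571, 12264 and 12946 CPM, and the LJP mice 11270, 9844, 12112 and 10944 CPM. Every Vehicle mouse was above every Sham and LJP mouse, and the lowest LJP mouse was below the highest Sham mouse. The Vehicle mean, 15338 ± 3769 CPM (SD, n = 4), was 1.59 times the Sham mean of 9648 ± 289 CPM, and the LJP mean of 11042 ± 938 CPM was 1.14 times it. As a share of all counts, without TMM scaling, the set took 0.894% to 0.971% in Sham, 1.24% to 2.16% in Vehicle and 0.984% to 1.24% in LJP mice. On this scale LJP mouse 3 was slightly above Vehicle mouse 3, so Vehicle and LJP mice overlapped.

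The mitochondrial set differed little as a sum. Its 78 genes held 1889 to 2007 CPM in Sham, 1982 to 2099 CPM in Vehicle and 1881 to 1991 CPM in LJP mice, with means within 1.06 times of Sham. The ranges of Sham and Vehicle overlapped on this scale. As shares of all counts they did not, at 0.182% to 0.195% in Sham and 0.200% to 0.219% in Vehicle mice.

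**Figure D1:**
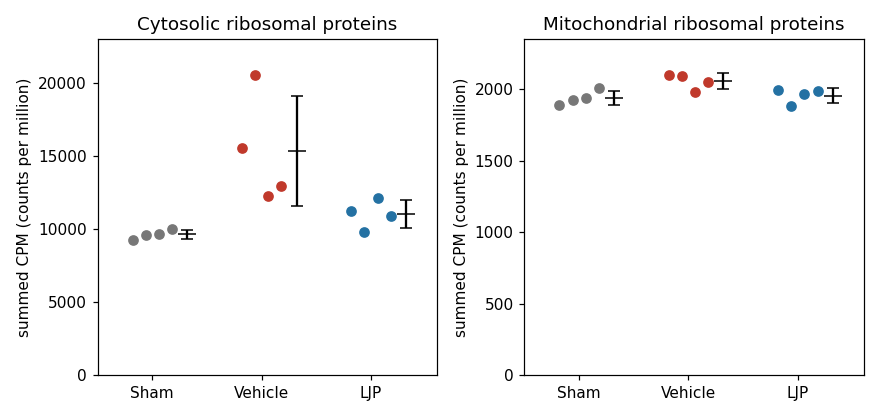
Summed CPM of all cytosolic (left) and all mitochondrial (right) ribosomal protein genes, with 1 point per mouse and the mean with SD beside each group of 4. The 4 Vehicle mice lie between 12264 and 20571 CPM on the left, above all Sham and LJP mice, while on the right all 12 mice lie between 1881 and 2099 CPM.

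Vehicle was compared with Sham to ask what ischemia and reperfusion did to each gene. Of the 81 cytosolic members tested, 75 rose and 0 fell at an adjusted p below 0.05 in edgeR's quasi-likelihood test, where 22.7% of all genes rose and 17.3% fell. Counts by direction were alike in both subunits, with 45 of 48 large subunit and 30 of 33 small subunit members higher. The median log2 fold change was 0.64 (0.59 for the large and 0.68 for the small subunit), against 3.5e-05 for all genes, and single members ranged from -0.17 to 1.66. In 75 members all 4 Vehicle mice were above all 4 Sham mice, where this held for 20.7% of all genes. DESeq2, the tool of the study, also called 75 higher and 0 lower, of 84 members with an adjusted p, where 20.4% of all genes rose and 16% fell. At the cut-offs in the study's methods (a log2 change beyond 0.58 either way, with an unadjusted p under 0.01) 47 were higher and 0 lower, against 15.2% and 6.35% of all genes. With Vehicle mice 3 and 4 alone, 66 members rose by edgeR, where 15.8% of all genes rose, and the median was 0.36. Leaving out 1 mouse at a time lost the call of 6 of the 75, Rpl4, Rpl17, Rpl23a, Rpl24, Rps24 and Rps26, in at least 1 fit (named after their values were seen). In a hemisphere, more cells of a kind that makes many ribosomes and more of these messages per cell cannot be told apart.

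The smallest p among cytosolic members belonged to Rps28 (chr17:33823036-33824562, minus strand, GRCm38), a small protein of the 40S subunit head. It stood at 48.3, 44.2, 44.7 and 45.8 CPM in Sham, 85.2, 108, 69.2 and 76.0 CPM in Vehicle, and 67.4, 51.3, 67.6 and 58.7 CPM in LJP mice. All Vehicle mice were above all others, and all LJP mice were above all Sham mice. Its log2 fold change in Vehicle against Sham was 0.89 (SE 0.13, adjusted p = 0.000507), and 0.66 with Vehicle mice 3 and 4 alone.

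Rpl18 (chr7:45715467-45720835, plus strand), a 60S subunit protein, rose more. It was at 91.7, 95.6, 97.8 and 104 CPM in Sham, 242, 325, 153 and 166 CPM in Vehicle, and 131, 119, 150 and 116 CPM in LJP mice, with no overlap between Vehicle and either group. The log2 fold change was 1.19 (SE 0.20, adjusted p = 0.00107), and 0.71 with Vehicle mice 3 and 4 alone. Rpl32 and Rpl41, further 60S proteins, were also among the 5 with the smallest p, with log2 fold changes of 1.00 and 0.79 (0.68 and 0.53 with Vehicle mice 3 and 4 alone). Rpl18 overlaps Sphk2 and Rpl32 overlaps Cand2 on the opposite strand, and whether the counting used strand is not stated. The 69 cytosolic members that overlap no tested gene gave 64 calls and a median of 0.66, where 22.7% of all genes rose.

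The most abundant members by mean CPM over all 12 mice were Rpl3, Rpl13a, Rps2, Rpl4 and Rpl8, and all 5 rose. That mean includes the Vehicle mice, so the rise itself enters this ranking. Rps2, which lies near the entry of the message channel, was at 302 to 324 CPM in Sham, 467 to 1024 CPM in Vehicle and 334 to 443 CPM in LJP mice, a log2 fold change of 1.07 (adjusted p = 0.00242) in Vehicle against Sham. Rpl3, near the peptidyl transferase centre, was at 394 to 437 CPM, 513 to 688 CPM and 457 to 508 CPM, a log2 fold change of 0.47 (adjusted p = 0.00293). These were 0.61 for Rps2 and 0.30 for Rpl3 with Vehicle mice 3 and 4 alone. Rpl13a and Rpl8 rose by 0.70 and 0.78, and by 0.45 and 0.43 with Vehicle mice 3 and 4 alone. Rpl4 rose by 0.44 (adjusted p = 0.0218). Its call was lost without Sham mouse 1 or Sham mouse 2 (highest adjusted p = 0.0536) and with Vehicle mice 3 and 4 alone (0.16, adjusted p = 0.0716), and its log2 fold change was 0.26 without Vehicle mouse 2. Per kilobase of gene model, Sham levels of the tested cytosolic members had a median of 123 CPM per kb, from 0.160 for Rpl3l to 355 for Rpl13a, and those of the mitochondrial members a median of 15.0, from 2.29 for Mrpl1 to 48.7 for Mrps34.

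**Figure D2:**
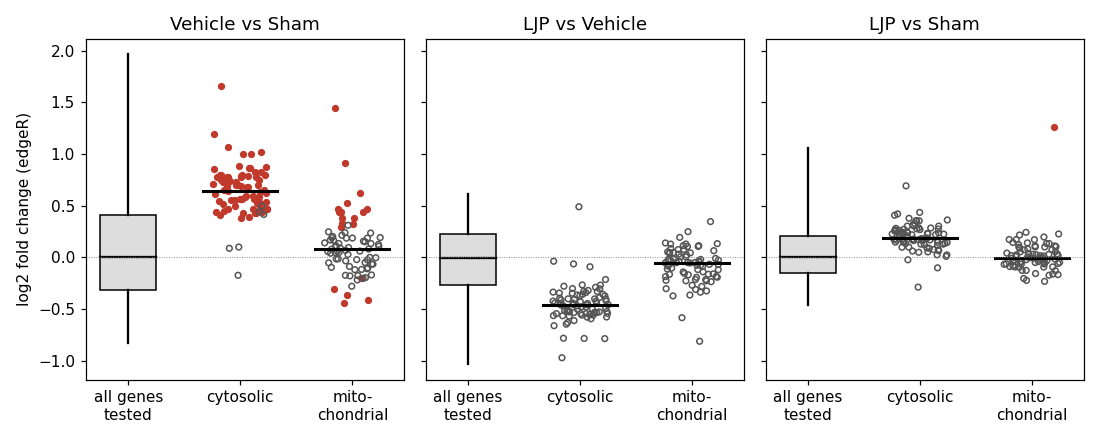
Log2 fold changes from edgeR in the 3 comparisons. Grey boxes show the median, quartiles and 5th to 95th percentiles of all 17558 genes tested, and points are the 81 cytosolic and 78 mitochondrial members, filled in red at an adjusted p below 0.05, with black bars at the set medians. The cytosolic median is 0.64 in Vehicle vs Sham, -0.46 in LJP vs Vehicle and 0.19 in LJP vs Sham, and the mitochondrial medians are 0.081, -0.053 and -0.00082.

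Start sites are printed because a pyrimidine run at the start is what cytosolic ribosomal protein messages are known for. RefSeq promoters (GRCm38.p6) were found for 136 members, 67 cytosolic and 69 mitochondrial. Each line gives 30 bases before and 20 bases from the annotated start, 5′ to 3′ on the gene's strand, with the longest run of C and T in capitals (the first, where 2 are equal). The first 6 lines are the cytosolic members with the smallest p in Vehicle against Sham that have an entry, and Rpl22l1 is a member that did not pass the test. Of the entries of Rps27l, the one with the longest run near the start is shown.
Rps28 (chr17:33824543-33824592, minus strand): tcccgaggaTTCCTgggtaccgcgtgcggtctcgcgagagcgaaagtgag
Rpl18 (chr7:45718041-45718090, plus strand): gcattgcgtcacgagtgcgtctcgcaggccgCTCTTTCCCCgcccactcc
Rpl41 (chr10:128549149-128549198, minus strand): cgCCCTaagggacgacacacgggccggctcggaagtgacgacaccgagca
Rpl38 (chr11:114668550-114668599, plus strand): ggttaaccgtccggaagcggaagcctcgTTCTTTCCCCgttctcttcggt
Rps27l (chr9:66946056-66946105, plus strand): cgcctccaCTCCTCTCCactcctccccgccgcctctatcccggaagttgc
Rpl13a (chr7:45128726-45128775, minus strand): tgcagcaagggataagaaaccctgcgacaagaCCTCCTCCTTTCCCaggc
Rpl22l1 (chr3:28805478-28805527, plus strand): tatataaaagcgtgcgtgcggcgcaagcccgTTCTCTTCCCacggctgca
In Rpl18, Rpl38, Rpl13a and Rpl22l1 a run of 10 to 14 pyrimidines covers or follows the annotated start within a few bases, while in Rps27l 2 runs of 9, 1 base apart, lie upstream of it. Rps28 and Rpl41 have no such run in this window, where their longest are 5 and 4 bases, both upstream of the annotated start. The annotated starts were not checked against the reads of these mice. For Rpl18 the annotated start used here, 45718071, lies inside the gene model given above. A missing run therefore describes the annotated start and not the message itself.

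A run of at least 8 C or T in a row, within 20 bases before and 30 bases after the annotated start on the gene's strand, was held by 36 of 67 cytosolic members (53.7%), 16 of 69 mitochondrial members (23.2%), 21.5% of 27025 genes with a promoter entry and 21.9% of the 13710 of these that were tested. The letters CTTTCC, which can lie inside such a run, were in that window for 20.9%, 2.9%, 2.83% and 2.69% of the same 4 groups of genes. CGGAAG on either strand, the core of ETS factor sites, was in the 300-base promoter of 62.7% of cytosolic members, 56.5% of mitochondrial members, 18.8% of genes with a promoter entry and 29.5% of those tested. AAGATGGCG on either strand, a site of the YY1 type, was in 5.97%, 11.6%, 1.64% and 2.84%. A gene with several entries was counted if any of them held the letters. These matches are letters in a window and not measured binding.

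Most cytosolic members rose with or without the run, so their call counts had little room to differ. Those that hold it and were tested had 32 of 34 calls and a median log2 fold change of 0.64 in Vehicle against Sham, and those without it had 25 of 28 calls and a median of 0.63. Members with CTTTCC had 11 of 11 calls and a median of 0.70, and those without it 46 of 51 and 0.64. Whether the run or these letters bear on the response was not tested. Among all tested genes with an entry, 23.9% with the run and 22.7% without it rose. Rpl22l1 has the run and did not pass the test.

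The exceptions among the cytosolic symbols were mostly not core ribosomal proteins. Of 73 members that are core proteins, 72 rose. Of the 8 tested members that are paralogs, retrogenes or proteins that only share the name, Rps27l, Rpl36al and Rpl7l1 rose, and Rpl22l1, Rpl3l, Rpl37rt, Rps23rg1 and Rps19bp1 did not pass the test. The last is a nucleolar partner of Rps19 rather than a ribosomal protein.

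Rps27l (chr9:66944624-66949522, plus strand), a paralog of Rps27 known as a p53 target, had the largest rise of the cytosolic members tested. It was at 4.67, 5.78, 4.38 and 5.23 CPM in Sham, 15.9, 27.2, 10.1 and 10.2 CPM in Vehicle, and 8.68, 7.00, 10.01 and 6.74 CPM in LJP mice. The log2 fold change was 1.66 (SE 0.29, adjusted p = 0.00134), and 1.01 with Vehicle mice 3 and 4 alone. Rps27 itself went from 46.8 ± 2.3 CPM in Sham to 68.8 ± 15 CPM in Vehicle (log2 fold change 0.56, adjusted p = 0.00772). Rps27 did not pass with Vehicle mice 3 and 4 alone (0.26, edgeR adjusted p = 0.0523). The ratio of Rps27l to Rps27 was 2.02 times higher in Vehicle than in Sham (exact two-sided permutation test, p = 0.0286, the smallest that 4 against 4 mice allow, and adjusted p = 0.152 over the 8 paralog tests run after the values were seen).

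Rpl22 and Rpl22l1 encode closely related 60S proteins that can stand in for each other. Rpl22 was at 67.8, 61.8, 68.0 and 71.2 CPM in Sham and 92.9, 119, 74.0 and 79.4 CPM in Vehicle mice (log2 fold change 0.44, adjusted p = 0.0140). The log2 fold change of Rpl22 was 0.19 with Vehicle mice 3 and 4 alone and did not pass (edgeR adjusted p = 0.0638), and it was 0.28 without Vehicle mouse 2. Rpl22l1 was at 28.5, 28.7, 24.2 and 29.0 CPM in Sham, 29.7, 29.5, 30.7 and 27.5 CPM in Vehicle, and 28.1, 24.2, 29.1 and 31.0 CPM in LJP mice. The 3 groups of Rpl22l1 overlapped, with a log2 fold change of 0.09 (SE 0.09, adjusted p = 0.465) in Vehicle against Sham. The ratio of Rpl22l1 to Rpl22 fell to 0.797 times its Sham value, which did not pass (exact permutation p = 0.0857, adjusted p = 0.171).

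The remaining paralogs gave ratios to their parents that did not pass, or were scarcely present. Rpl36al rose by 0.68 and Rpl36a by 0.55 on the log2 scale (0.34 for Rpl36a without Vehicle mouse 2, and 0.45 and 0.32 with Vehicle mice 3 and 4 alone), and Rpl7l1, a nucleolar relative, by 0.38 against 0.69 for Rpl7. The ratio of Rpl36al to Rpl36a was 1.10 times its Sham value (exact permutation p = 0.2, adjusted p = 0.229). The ratio of Rpl7l1 to Rpl7 was 0.822 times its Sham value (exact permutation p = 0.0571, adjusted p = 0.152). Rpl7l1 did not pass with Vehicle mice 3 and 4 alone (0.19, edgeR adjusted p = 0.105). Rpl3l, a muscle paralog of Rpl3, stayed at 0.269 to 0.665 CPM in all 12 mice. The 6 members left out by the filter were near 0: Rpl10l, a testis paralog, had 0 counts in 11 mice and 1 in the other, Rpl39l had 0 to 5 counts, Rpl31-ps12 0 to 4, Rpl32l 1 to 9, Rps27rt 4 to 10 and Rpl34-ps1 4 to 31. Reads of retrogenes and pseudogenes with near-identical sequence may be shared with their parents, so these small counts are uncertain.

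**Figure D3:**
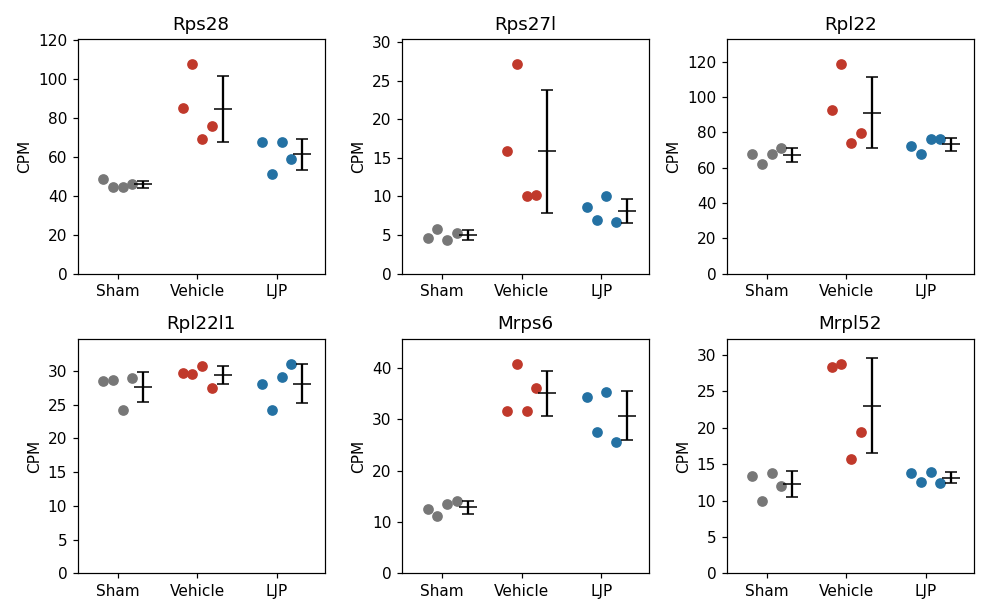
CPM of 6 members, with 1 point per mouse and the mean with SD beside each group of 4. Rps28 and Rps27l are higher in all Vehicle than in all Sham mice, Rpl22 rises while Rpl22l1 stays between 24.2 and 31.0 CPM in all mice, Mrps6 is higher in all Vehicle and LJP mice than in Sham, and Mrpl52 is highest in the Vehicle mice.

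In the mitochondrial set 14 members rose and 5 fell in Vehicle against Sham, out of 78 tested. That is 17.9% higher and 6.41% lower, under the 22.7% and 17.3% of all genes. The median log2 fold change was 0.081, and 59 members did not pass. In 15 of the 78 (19.2%) all Vehicle mice were above all Sham mice and in 9 (11.5%) all were below, against 20.7% and 18.8% of all genes. With Vehicle mice 3 and 4 alone, 6 rose and 3 fell, where 15.8% of all genes rose and 14.3% fell, and the median was 0.055.

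Mrps6, a protein of the small mitochondrial subunit, stood far from the other mitochondrial members. It was at 12.6, 11.2, 13.6 and 14.04 CPM in Sham, 31.7, 40.8, 31.7 and 36.0 CPM in Vehicle, and 34.4, 27.6, 35.3 and 25.6 CPM in LJP mice. Every Vehicle and LJP mouse was above every Sham mouse, and Vehicle and LJP mice overlapped. The log2 fold change was 1.45 (SE 0.13, adjusted p = 5.64e-05) in Vehicle and 1.26 (SE 0.13, adjusted p = 0.000406) in LJP mice against Sham, and 1.39 in Vehicle mice 3 and 4 alone.

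The place of Mrps6 in the genome bears on how its reads were counted. Mrps6 (chr16:92058336-92112227, GRCm38) and Slc5a3, the sodium and myo-inositol cotransporter that cells induce under osmotic stress, lie on the same strand with annotated starts 14 bases apart. Their start windows are printed to show that shared promoter, with the longest pyrimidine run, the same 5 bases in both, in capitals.
Slc5a3 (chr16:92058292-92058341, plus strand): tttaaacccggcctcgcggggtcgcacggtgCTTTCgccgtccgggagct
Mrps6 (chr16:92058306-92058355, plus strand): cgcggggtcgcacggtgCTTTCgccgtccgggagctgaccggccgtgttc
Slc5a3 was at 31.2 CPM on average in Sham and 44.8 CPM in Vehicle, a log2 fold change of 0.52 (adjusted p = 0.0308). How reads were divided between these overlapping genes is not stated, so the values of Mrps6 and Slc5a3 are uncertain to that extent.

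Mrpl52 (chr14:54426909-54429750, plus strand), of the large mitochondrial subunit, came next. It was at 13.3, 9.92, 13.8 and 12.0 CPM in Sham, 28.4, 28.8, 15.7 and 19.4 CPM in Vehicle, and 13.8, 12.5, 13.9 and 12.4 CPM in LJP mice. Vehicle mice did not overlap with either other group, and Vehicle mice 1 and 2 were the highest. The log2 fold change was 0.91 (SE 0.18, adjusted p = 0.00265) in Vehicle against Sham and 0.51 with Vehicle mice 3 and 4 alone. Its last base lies 1848 bases before the start of Mmp14, a membrane metalloprotease gene on chromosome 14 that rose by 2.17 (adjusted p = 0.00130) in the same comparison. Whether reads of Mmp14 reach Mrpl52 was not tested.

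The other mitochondrial members that rose did so by less. Mrpl33 rose by 0.62 and Mrpl2 by 0.53 on the log2 scale, Mrpl39 by 0.47, Mrps34 by 0.44, Mrps28 by 0.38 and Mrps26 by 0.29. Mrpl9, Mrpl17, Mrpl41, Mrps16, Mrps18b and Mrps24, named here only to complete the count, lay between 0.32 and 0.47. In Mrpl33 and Mrps18b the Vehicle and Sham mice overlapped. Of the 14 that rose, Mrps6, Mrpl52, Mrpl39 and Mrps34 were the 4 that also passed with Vehicle mice 3 and 4 alone, and 7 lost their call in at least 1 fit without 1 mouse. Mrpl2 overlaps Klc4 on the opposite strand.

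The 5 members that fell were Mrpl35 (-0.44), Mrps25 (-0.41), Mrps33 (-0.36), Mrpl19 (-0.31) and Mrpl3 (-0.20). Mrps25, one of the most abundant mitochondrial members by CPM, was at 91.6, 94.9, 100 and 96.4 CPM in Sham, 63.8, 60.3, 80.2 and 83.4 CPM in Vehicle, and 85.3, 80.2, 85.6 and 90.7 CPM in LJP mice. All Vehicle and all LJP mice were below all Sham mice (adjusted p = 0.00666 and 0.409), and the log2 fold change against Sham was -0.23 with Vehicle mice 3 and 4 alone. Mrps25 overlaps Nr2c2, which fell by 0.51 (adjusted p = 0.00220), and Mrpl19 overlaps Gcfc2, each on the opposite strand. Mrps25 and Mrps33 also passed with Vehicle mice 3 and 4 alone, and Mrpl35, Mrpl19 and Mrpl3 did not (adjusted p = 0.311, 0.0781 and 0.0939). Mrpl35 lost its call in 8 and Mrpl3 in 5 of the 12 fits without 1 mouse. Without the members that overlap a tested gene, 11 rose and 3 fell of 56, where 22.7% of all genes rose and 17.3% fell.

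Gene length moved with these calls. The mitochondrial members that rose had a median gene model of 986 bases, those that fell 3695 bases, and the cytosolic members that rose 821 bases. Over all genes, the median log2 fold change in Vehicle against Sham was 0.014 for models up to 500 bases, of which 21.1% rose, 0.19 for models over 500 and up to 1000 bases, of which 32.3% rose, and -0.15 for models over 5000 bases, of which 15.7% rose. With a correction for length in each mouse, added after seeing the data, 63 cytosolic members rose and 0 fell at a median of 0.44, where 22.1% of all genes rose and 16% fell. The mitochondrial set then had 8 of 78 higher and 13 lower at a median of -0.045, so the sign of its median depends on this setting, and its lower count was near the share of all genes. Mrps6 stayed at 1.24 and Mrpl52 at 0.68.

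Genes that work beside the ribosome were read from lists. The 7 cytosolic ribosomal proteins that the naming rule misses all rose, where 22.7% of all genes did, with a median log2 fold change of 0.75, and all 7 rose with Vehicle mice 3 and 4 alone at a median of 0.43. Rplp0, the stalk protein often used as a reference gene in quantitative PCR, rose most. It was at 153, 157, 165 and 164 CPM in Sham, 423, 686, 289 and 321 CPM in Vehicle, and 257, 199, 277 and 214 CPM in LJP mice. Its log2 fold change was 1.43 (SE 0.23, adjusted p = 0.000802), or 0.93 with Vehicle mice 3 and 4 alone, and all Vehicle mice were above all LJP mice, which were above all Sham mice. Fau, which encodes a ribosomal protein fused to a ubiquitin-like protein, rose by 0.71.

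Of 19 translation factors and related messages of the same pyrimidine class, 15 rose and 1 fell, at a median of 0.36, where 22.7% of all genes rose and 17.3% fell. There were 10 that rose and 1 that fell with Vehicle mice 3 and 4 alone, at a median of 0.19, where 15.8% of all genes rose and 14.3% fell. Eif3f and Eif3h, subunits of initiation factor 3, rose by 0.55 (adjusted p = 0.00127) and 0.35, and Btf3, a chaperone of nascent chains, by 0.84 (0.36, 0.23 and 0.45 with Vehicle mice 3 and 4 alone). The one that fell was Nap1l1, a histone chaperone (-0.27, named after its value was seen), whose call was lost in 6 of the 12 fits without 1 mouse. Of 51 ribosome biogenesis genes, 13 rose (25.5%, near the 22.7% of all genes) and 1, Taf1b of the RNA polymerase I machinery, fell (named after its value was seen), where 17.3% of all genes fell. The leading ones were Ddx21, a nucleolar helicase (1.09), Eif6, which keeps 60S subunits from joining early (0.79), and Fbl, the methyltransferase of box C/D snoRNPs (0.68). The summed level of this list was 1.26 and 1.31 times the Sham mean in Vehicle mice 1 and 2 and 0.956 and 0.976 times in mice 3 and 4. With mice 3 and 4 alone, 6 biogenesis genes rose and 4 fell, at a median of -0.010, where 15.8% of all genes rose and 14.3% fell. Ddx21, Eif6 and Fbl still passed there, at 0.39, 0.34 and 0.38, and Taf1b did not (adjusted p = 0.0720).

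The mitochondrial lists had medians near 0, and the share of their genes that passed can be set against the 22.7% of all genes that rose and the 17.3% that fell. Of 5 mitochondrial ribosomal proteins outside the naming rule 0 rose and 1 fell (Ptcd3, -0.26, adjusted p = 0.0275), with Aurkaip1 at 0.19 and Chchd1 at 0.20. Ptcd3 did not pass with Vehicle mice 3 and 4 alone (-0.23, adjusted p = 0.0604) and lost its call in 4 of the 12 fits without 1 mouse (highest adjusted p = 0.0713). Of 13 mitochondrial translation factors 1 rose and 1 fell (7.69% each way). Gfm2, a factor of ribosome recycling, rose by 1.04 (adjusted p = 0.00418), Lrpprc, which stabilises mitochondrial messages, fell by 0.38 on the log2 scale, and Mrrf did not pass. Both calls were also made with Vehicle mice 3 and 4 alone, at 1.26 and -0.22. Gfm2 was at 60.9, 121, 130 and 128 CPM in Vehicle against 51.4 to 56.6 CPM in Sham, and at 88.1 to 143 CPM in LJP mice (1.09 against Sham, adjusted p = 0.0167). Of 22 assembly factors of the mitochondrial ribosome, Rcc1l, Trub2 and Rbfa rose (13.6%), by 0.58, 0.36 and 0.30. Rcc1l was the only one of the 22 to pass with Vehicle mice 3 and 4 alone (0.34), where Trub2 and Rbfa had adjusted p of 0.439 and 0.154. Trub2 lost its call in 6 (lowest log2 fold change 0.23) and Rbfa in 4 of the 12 fits without 1 mouse.

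**Figure D4:**
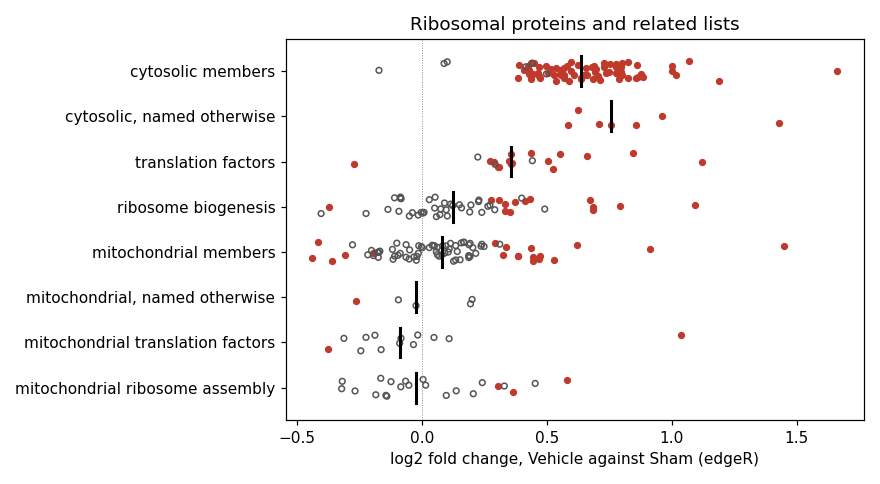
Log2 fold change of Vehicle against Sham for the members and for related lists, with 1 point per gene tested, filled in red at an adjusted p below 0.05, and black bars at list medians. The cytosolic lists have medians of 0.64, 0.75 (named otherwise) and 0.36 (translation factors), and the mitochondrial lists lie near 0.

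The last lists hold growth signalling genes and genes of p53 and the 5S ribonucleoprotein. Of 16 growth signalling genes 3 rose (18.8%) and 2 fell (12.5%), under the 22.7% and 17.3% of all genes. Eif4ebp1, the repressor of cap-dependent initiation that mTOR switches off, was at 1.69 to 2.69 CPM in Sham, 17.8, 36.6, 7.05 and 10.3 CPM in Vehicle and 4.46 to 7.78 CPM in LJP mice (Vehicle against Sham 3.09, adjusted p = 0.000565). Myc, a transcription factor of ribosome production, rose by 2.22 (adjusted p = 0.00121), Tsc1, which restrains mTOR, fell by 0.25, Maf1 rose by 0.28 and Eif4e fell by 0.23, the last pair named after their values were seen. All 7 genes of the list on p53 and the 5S ribonucleoprotein rose, where 22.7% of all genes did, by 0.31 to 1.66, with Rpl11 at 0.79 and Rpl23 at 0.70, and Mdm2, the ubiquitin ligase that Rpl5 and Rpl11 bind, at 0.31 (adjusted p = 0.0497). That list shares Rps27l, Rpl5, Rpl11, Rpl23 and Rps7 with the cytosolic set. With Vehicle mice 3 and 4 alone, where 15.8% of all genes rose, 5 of these 7, the cytosolic members, rose. Mdm2 (0.091, adjusted p = 0.440) and Rrs1, a factor of 5S ribonucleoprotein assembly (0.31 with all mice, 0.041 here, adjusted p = 0.756, named after its value was seen), did not pass. Both calls were lost in 10 of the 12 fits without 1 mouse. Of the growth signalling genes Eif4ebp1 and Myc were the 2 that rose with Vehicle mice 3 and 4 alone, at 2.03 and 1.18, and 0 fell. Tsc1, Maf1 and Eif4e did not pass there, and each lost its call in 5 or 6 of the 12 fits without 1 mouse.

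LJP was compared with Vehicle to ask whether the polysaccharide altered these levels after the same occlusion. No cytosolic member passed at an adjusted p below 0.05 in edgeR, where 4 genes in all fell (0.0228%) and 0 rose. The direction was nearly uniform: 80 of 81 were lower, with a median log2 fold change of -0.46 against -0.0017 for all genes, and the exception was Rpl3l. At an unadjusted p below 0.05, 76 were lower and 0 higher (17.4% and 12.3% of all genes), and the smallest adjusted p was 0.0695. In 38 members all LJP mice were below all Vehicle mice, which held for 5.91% of all genes, and in 0 all were above (5.77%). By DESeq2, 50 of 82 members with an adjusted p fell and 0 rose, where 9.36% of all genes fell and 3.81% rose.

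The call turned on the Vehicle mice. Without Vehicle mouse 3, 72 cytosolic members passed as lower in edgeR, where 13.2% of all genes did. Without Vehicle mouse 4, 49 did, where 8.15% of all genes did. With Vehicle mice 3 and 4 alone 0 passed, and the median was -0.18. In the fits without 1 mouse the median was -0.54 to -0.28, nearest 0 without Vehicle mouse 2. This comparison shares its Vehicle mice with the one against Sham, so a member that was high in Vehicle tends to appear low here.

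Rpl36, Rpl13, Rpl27 and Rpl18, all of the 60S subunit, were among the 5 cytosolic members with the smallest p in LJP against Vehicle. Rpl36 was at 120, 145, 91.8 and 101 CPM in Vehicle and 83.5, 72.2, 80.8 and 77.4 CPM in LJP mice, with no overlap. Its log2 fold change was -0.54 (SE 0.12, edgeR adjusted p = 0.0695 and DESeq2 adjusted p = 0.00511). The LJP mice of Rpl36 overlapped with the Sham mice at 61.9 to 75.1 CPM. Rpl13 was at 334 to 584 CPM in Vehicle and 265 to 304 CPM in LJP mice (-0.59, edgeR adjusted p = 0.0695 and DESeq2 adjusted p = 0.00625). At the cut-offs in the study's methods 8 cytosolic members were lower and 0 higher, against 5.83% and 0.997% of all genes.

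Of the mitochondrial members 0 passed in either direction by edgeR in LJP against Vehicle, with 12 lower and 2 higher at an unadjusted p below 0.05 (17.4% and 12.3% of all genes). DESeq2 called 3 lower, where 9.36% of all genes were. The median was -0.053. Mrpl52 had the largest difference at -0.81 (SE 0.18, edgeR adjusted p = 0.0695 and DESeq2 adjusted p = 0.00339), and Mrpl33 and Mrpl22 were the other 2 DESeq2 calls, at -0.58 and -0.37 in edgeR. Mrps28 and Mrps34 were at -0.36 and -0.31. The 5 with the smallest p among the higher members were Mrps25 (0.25), Mrpl35 (0.35), Mrps21, Mrps17 and Mrpl3, none past the test. Mrps6 differed by -0.19 (SE 0.13, adjusted p = 0.310).

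LJP against Sham gave 0 cytosolic calls in edgeR, where 3.82% of all genes rose and 0.906% fell, with 8 higher and 0 lower at an unadjusted p below 0.05 (11.6% and 7.3% of all genes). DESeq2 called 0 in either direction, with 5.6% of all genes higher and 1.95% lower. The median was 0.19, and 78 of 81 were above Sham. In 23 members all LJP mice were above all Sham mice (12.9% of all genes). Rps28 (0.42, SE 0.13, adjusted p = 0.0896), Rpl32 (0.44) and Rpl39 (0.35) had the smallest p among the higher, and Rps23rg1 and Rpl23a were among the 3 that were lower. In a fit of the Sham and LJP mice alone, 38 cytosolic members rose, where 12.1% of all genes did. Without Vehicle mouse 2, 11 did, where 7.64% of all genes did.

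Of the mitochondrial members Mrps6 alone passed against Sham. The next in p were Mrpl39 (0.24) and Mrpl15 (0.17) among the higher and Mrpl18 (-0.22), Mrps33 (-0.23) and Mrpl19 (-0.20) among the lower, none past the test (adjusted p of 0.164 or more). The set's median was -0.00082, with 39 members on each side.

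Across the Vehicle mice the endothelial and myeloid marker sums ranked as the cytosolic set did, and the neuron sum ranked in reverse. Vehicle mouse 2 had the highest level of 78 of the 81 cytosolic members tested, and also the highest endothelial, myeloid, astrocyte and proliferation sums and the lowest neuron sum of the 12 mice. Of the 4 endothelial markers, 3 rose in Vehicle against Sham and 0 in LJP against Sham, where 22.7% and 3.82% of all genes rose. Among them Cldn5, of tight junctions, went from 38.2 to 46.0 CPM in Sham to 89.0 to 353 CPM in Vehicle and 47.2 to 79.0 CPM in LJP mice, and Pecam1 and Cdh5 rose by 2.91 and 2.94 in Vehicle. All 4 tested myeloid markers of 6 listed rose in Vehicle, from a sum of 12.6 to 17.98 CPM in Sham to 117 to 281 CPM, with 46.8 to 168 CPM in LJP mice. With mice 3 and 4 alone 2 of these 4 passed, where 15.8% of all genes rose. Ccr2 and Ms4a7 did not pass there (adjusted p = 0.119 and 0.0731, named after their values were seen).

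Other lists did not follow that order across the Vehicle mice. Vehicle mouse 1, second for the cytosolic set, had the lowest microglial (381 CPM), astrocyte (2082 CPM) and proliferation (21.0 CPM) sums of the Vehicle mice. The highest microglial sums were those of LJP mice 1 and 3 (790 and 797 CPM). Across the LJP mice the microglial sum did rank as the cytosolic set, with mice 4 and 2 at 471 and 461 CPM. The endothelial and myeloid sums did not, as both were lowest in LJP mouse 4 (154 and 46.8 CPM). The microglial sum was 265 to 271 CPM in Sham, 381 to 781 CPM in Vehicle and 461 to 797 CPM in LJP mice. In each ischemic group 5 of 6 markers were higher than Sham, where 22.7% of all genes rose in Vehicle and 3.82% in LJP mice. The astrocyte sum was 681 to 717 CPM, 2082 to 3486 CPM and 1624 to 2813 CPM, with 2 of 4 markers higher in each. The neuron sum was 7139 to 7822 CPM, 4058 to 6671 CPM and 6364 to 7652 CPM. In Vehicle 3 of 6 neuron markers fell, where 17.3% of all genes did. All 3 proliferation markers rose in both ischemic groups, and 0 of 4 oligodendrocyte markers passed in Vehicle or LJP against Sham. The part of each cell type in the ribosomal protein levels was not tested. In Vehicle mouse 3, whose endothelial sum was 235 CPM against at most 172 CPM in Sham, the cytosolic sum was 1.27 times the Sham mean. In that mouse the myeloid, astrocyte, microglial and proliferation sums were 7.83, 3.42, 2.76 and 9.14 times their Sham means. Its neuron sum was 0.886 times the Sham mean.

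**Figure D5:**
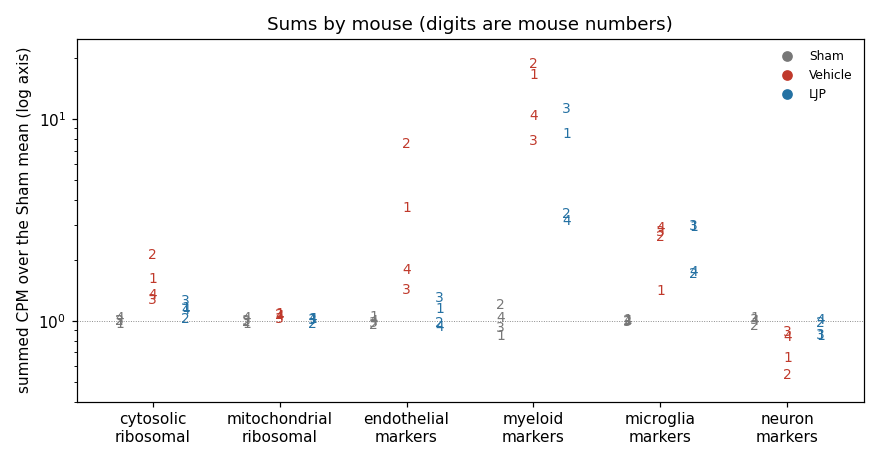
Summed CPM of the 2 ribosomal sets and of 4 marker lists, each divided by its Sham mean, on a log axis, with digits giving the mouse number in each group of 4. Vehicle mice 2 and 1 are highest for the cytosolic set (2.13 and 1.61 times Sham) and for endothelial (7.54 and 3.64) and myeloid markers, and lowest for neuron markers (0.539 and 0.658), while the mitochondrial set stays within 0.970 to 1.08 in all mice.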

How the data were processed

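RNA from 1 hemisphere of each of 12 mice was sequenced (labelled ischemic, Sham mice included), and the deposited table holds raw read counts by gene beside gene type, length and position. Per the labels and the methods, poly(A) libraries were made with a NEBNext kit, and featureCounts, DESeq2 and the builds GRCm39 and mm10 are named in the submitters' processing notes. Gene positions in the deposited table are those of GRCm38. The aligner, the strand setting and the handling of shared reads are not given in the sources used here.

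The count model was edgeR 4.0.16 under R 4.3.3 (filterByExpr, TMM factors, robust quasi-likelihood fit of all 12 mice with a term per group). Benjamini-Hochberg adjustment ran over all 17558 genes tested, and a call is an adjusted p below 0.05. CPM values use TMM-scaled library sizes, and log2 CPM in the pairing check and the length correction a prior count of 2. Paralog ratios were compared by exact permutation tests over mice. Groups came from the treatment labels, and each library was taken as 1 mouse. No library was a copy of another: the closest of 18 within-group pairs had a chi-square of 2.57 per degree of freedom. Floors cover counting error only.

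Alternatives were DESeq2 1.42.0, RLE factors, total counts only, no filter, only the 2 groups compared, a replicate block, the thresholds of the study's methods and leaving out each mouse. A gene length correction and a fit with Vehicle mice 3 and 4 alone were added after seeing the data.

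Named genes were taken by rule. For each set these are the 5 members with the smallest p in each direction in Vehicle vs Sham and LJP vs Vehicle, the 3 in LJP vs Sham, the 5 with the highest mean CPM, all paralogs and retrogenes with their parent genes, and 3 genes by p from each related list. The members and lists were chosen with earlier results of these data known, and 3 retrogenes were added to the list of paralogs after the counts were seen. Some genes that the rule names are not reported here. No set test was run. Promoters were read from RefSeq, and figures drawn with matplotlib 3.10.9.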

Additional observations from a re-analysis of the deposited data

Results flagged for a closer look

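In 4 of 156 groups of 4 mice checked, 1 mouse lay farther from the others than Dixon's 95% critical value allows, judged by its gap to the nearest mouse as a share of the group's range. Chance alone would give about 7.8. Rpl32 was low in Sham mouse 2, at 74.0 CPM with the next mouse at 79.8 CPM (ratio 0.926). Rpl22l1 was low in Sham mouse 3, at 24.2 CPM with the next at 28.5 CPM (ratio 0.911). Rpl36a was high in Vehicle mouse 2, at 76.7 CPM with the next at 49.2 CPM (ratio 0.854), and Mrpl15 was low in the same mouse, at 20.3 CPM with the next at 22.3 CPM (ratio 0.848).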

How the results depend on the processing

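In Vehicle vs Sham the cytosolic count of 75 higher and 0 lower stayed within 1.5 times under the other normalizations, filter, tools and mice, at 69 to 76 without any 1 mouse (median 0.44 to 0.73), and was 47 at the thresholds of the study's methods. The mitochondrial 14 higher and 5 lower became 23 and 3 with total counts only (median 0.16, where 27% of all genes were higher and 13.1% lower), 8 and 13 with the gene length correction (median -0.045), 6 and 3 with Vehicle mice 3 and 4 alone, and 3 and 0 at the study's thresholds. They were 7 to 17 and 3 to 7 without any 1 mouse (7 higher without Sham mouse 1). The lower count was also 3 with no filter, with only the 2 groups compared and with the replicate block. Replicate numbers did not pair the mice: 1 of 12 correlations of same-numbered mice was over 0.1 (range -0.32 to 0.11), and apart from that count the block moved no count of members by over 1.5 times.

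In LJP vs Vehicle, DESeq2 called 50 cytosolic and 3 mitochondrial members lower, the study's thresholds 8 and 2, and leaving out 1 mouse 0 to 72 and 0 to 8 (72 and 8 without Vehicle mouse 3, 49 and 3 without Vehicle mouse 4), with 0 to 1 mitochondrial members higher. The mitochondrial median was 0.017 with the length correction. In LJP vs Sham, the fit of those 2 groups called 38 cytosolic members higher and 1 lower, and 2 mitochondrial members higher and 2 lower, where 12.1% of all genes were higher and 11.9% lower. Without 1 mouse the cytosolic count was 0 to 11 (11 without Vehicle mouse 2). The mitochondrial median was 0.052 with total counts only and -0.052 with the length correction. The cause of these moves was not tested.

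The single genes below changed sign. With the length correction, Vehicle vs Sham became -0.14 for Rpl22l1, -0.10 for Rps19bp1 and -0.020 for Chchd1, and LJP vs Vehicle became -0.070 for Mrpl15, 0.035 for Mrpl18, 0.077 for Rpl22l1, 0.042 for Rps19bp1 and 0.10 for Rpl37rt. With Vehicle mice 3 and 4 alone, Mrpl15, Mrpl48 and Rpl37rt were -0.023, -0.089 and 0.013 in LJP vs Vehicle. With total counts only, Mrpl15 was -0.017 in LJP vs Vehicle and Rpl23a 0.032 in LJP vs Sham. Without 1 mouse, Rpl3l was -0.34 to 0.038 in Vehicle vs Sham. In LJP vs Vehicle, Mrpl15 was -0.029 to 0.036, Mrpl18 -0.074 to 0.028, Mrpl48 -0.0038 to 0.17, Rpl22l1 -0.11 to 0.0049 and Rpl37rt -0.11 to 0.047. In LJP vs Sham, Rps23rg1 was -0.31 to 0.13 and Rpl23a -0.079 to 0.039.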

Other observations

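Rows named like ribosomal proteins but not annotated as protein coding were left out of the counts above. Rps4l, annotated as a transcribed pseudogene, had 265, 266, 297 and 277 counts in Sham, 530, 811, 307 and 325 in Vehicle, and 396, 365, 277 and 250 in LJP mice, and rose by 0.62 on the log2 scale in Vehicle against Sham (edgeR adjusted p = 0.0283). The call of Rps4l was lost in 5 of 12 fits without 1 mouse, with a lowest log2 fold change of 0.35, and with Vehicle mice 3 and 4 alone (0.17, adjusted p = 0.343). Rpl17-ps10 had 112 to 161 counts in Sham, 153 to 341 in Vehicle and 124 to 154 in LJP mice, and rose by 0.56 (adjusted p = 0.0268). Its call was also lost in 5 of 12 fits without 1 mouse, with a lowest log2 fold change of 0.36, and with Vehicle mice 3 and 4 alone (0.21, adjusted p = 0.343). Rps19-ps3 had 18 to 26 counts in Sham and 16 to 20 in Vehicle. Reads shared with the parent genes were not separated.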
